A study of Caenorhabditis elegans with 2 samples.

Results

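The ceh-63 locus of Caenorhabditis elegans and its neighbour tag-52 lie on chromosome X, and ceh-63 is the gene whose tagged protein was immunoprecipitated. The pair, 2 of 44762 annotated genes, was chosen by position and with earlier results of these data known: every peak with a summit within 60 kb of the middle of ceh-63 (X 3673166) was taken from each of the 4 deposited lists. This gave 50 of 30000 peaks of the list called on both replicates together (the pooled list), 6 peaks of the list the authors held to be reproducible (1.6% of the pooled list in size), 42 of 30000 peaks of replicate 1 and 51 of 30000 peaks of replicate 2.

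The data come from chromatin immunoprecipitation followed by sequencing (ChIP-seq) with an anti-GFP antibody, although the antibody field of the labels reads ceh-63. All animals belonged to a single group of 2 biological replicates, strain OP742. The strain carries the transgene wgIs742, in which C02F12.10 (the sequence name of ceh-63) is joined at its C terminus to TY1, EGFP and FLAG tags, together with a wild-type copy of unc-119, in animals with the unc-119 mutation tm4063. Whole L1 larvae aged 6 hours, starved after synchronisation by bleaching and of both sexes pooled, were the material. The genotype names no change at the endogenous ceh-63 gene, and how many copies of the transgene the strain holds, or how much sequence around ceh-63 each copy carries, is not given in the sources used here. Reads from a transgene copy and from the native locus map to the same coordinates, so extra copies of this stretch of DNA and binding of the tagged protein to it cannot be told apart in these lists. The series has no second condition, the control library was not analysed here, and the read depth is unknown.

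Homeodomain proteins such as CEH-63 bind DNA through a helix-turn-helix fold and commonly recognise short AT-rich sites with the core ATTA. CEH-63 is known from the DVC interneuron in the tail of the worm. The name tag-52 is a temporarily assigned one, and RefSeq calls its product only a putative protein. A ChIP-seq peak gives a place where sequenced fragments pile up over the control, and it does not by itself show contact between protein and DNA.

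Both genes are transcribed from the minus strand, head to tail. ceh-63 (WBGene00045215) spans X 3672274 to 3674058, and tag-52 (WBGene00006431) spans X 3674041 to 3678557, immediately upstream, so that the 3′ UTR of tag-52 and the 5′ UTR of ceh-63 overlap by 18 bp. The outer starts of the pair are 4499 bp apart. All coordinates are 1-based on ce11, the same assembly as WBcel235, and upstream means towards higher coordinates here, since ceh-63 reads leftward.

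All 6 reproducible peaks of the locus lay between 1.17 kb downstream and 21.2 kb upstream of the middle of ceh-63. Their sequences around the summit are shown because they carry the strongest signal of the locus and can be compared with the homeodomain core. The stretches are on the plus strand, 5′ to 3′, 200 bases centred on the summit, cut where an annotated UTR begins and held to 30 bases where the summit itself is in a UTR. Capitals mark ATTA or its complement TAAT, and the letters are those of the RefSeq WBcel235 genome.
ceh-63 5′ UTR peak, chrX:3673769-3673798: acttttcaggatgggacATTAcatggaaaa
Peak upstream of tag-52, chrX:3678770-3678969: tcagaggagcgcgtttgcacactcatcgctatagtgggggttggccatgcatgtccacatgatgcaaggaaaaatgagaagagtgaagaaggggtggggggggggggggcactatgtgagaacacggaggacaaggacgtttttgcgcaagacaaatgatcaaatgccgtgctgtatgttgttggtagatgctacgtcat
Peak in a tag-52 coding exon, chrX:3677019-3677218: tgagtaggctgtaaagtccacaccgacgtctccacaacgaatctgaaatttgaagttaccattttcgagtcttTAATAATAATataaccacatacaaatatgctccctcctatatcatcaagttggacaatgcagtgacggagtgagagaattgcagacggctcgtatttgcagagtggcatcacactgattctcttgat
Peak in a C02F12.5 coding exon, chrX:3671892-3672004: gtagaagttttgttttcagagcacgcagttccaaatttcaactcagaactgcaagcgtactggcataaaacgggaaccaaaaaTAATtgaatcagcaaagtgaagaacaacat
Peak in a tag-278 coding exon, chrX:3686517-3686716: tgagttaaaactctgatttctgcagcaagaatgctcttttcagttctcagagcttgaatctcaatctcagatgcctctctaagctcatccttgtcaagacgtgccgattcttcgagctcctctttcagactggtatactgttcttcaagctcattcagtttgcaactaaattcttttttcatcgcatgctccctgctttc
Peak between C02F12.8 and C01C4.3, chrX:3694300-3694499: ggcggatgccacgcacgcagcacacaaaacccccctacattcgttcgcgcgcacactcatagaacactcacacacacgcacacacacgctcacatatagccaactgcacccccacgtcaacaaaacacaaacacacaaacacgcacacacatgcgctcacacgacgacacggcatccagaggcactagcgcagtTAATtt

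The hexamer TAATTA, searched on both strands (it is its own complement), was in none of the 6 whole peaks of 370 bp. The core was present 8 times in the ceh-63 peak, 5 times in the C02F12.5 peak, 4 times in the tag-52 exon peak, 2 times in the intergenic peak near C02F12.8, 1 time in the tag-278 peak and 0 times in the peak upstream of tag-52. In the same order, the GC content of these peaks was 36.5%, 36.2%, 43.0%, 50.5%, 41.9% and 48.6%. Cores per peak were not counted over the other peaks, so these counts have no background beside them. The peak upstream of tag-52 held a run of 14 identical bases (G) within the printed stretch, and 41.2% of the base steps in the stretch near C02F12.8 were CA or AC. No part of these sequence features in the peaks was tested.

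The strongest peak of the locus was that at ceh-63 itself. It covered X 3673599 to 3673968 with its summit in the 5′ UTR, 274 bp downstream of the start. Among 30000 peaks ranked by the caller's signal, 1 being the highest, it had rank 2 in each of the 3 full lists. Both replicate summits lay 9 bp from the pooled summit. The deposited q-value (the false discovery rate assigned by the caller) was 0.00571 for replicate 1, 0.0239 for replicate 2 and 0.0261 for the pooled call, in each case the smallest value listed. That smallest q was shared by 58 pooled peaks, so q does not order the strongest sites. A second, weak pooled peak lay in the last coding exon of ceh-63 (X 3672220 to 3672589), with a pooled rank of 16758 and replicate ranks of 17473 (replicate 1) and 21914 (replicate 2). Its summit was 113 bp downstream of another annotated start of ceh-63. The summits of replicate 1 and replicate 2 lay 105 bp and 132 bp from it. They were 237 bp from each other, so they did not match each other within 200 bp.

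At tag-52 the strongest peak lay upstream of the gene and a further reproducible one lay inside it. The upstream peak (X 3678685 to 3679054, intergenic, 313 bp before the start) had ranks 4 (replicate 1), 42 (replicate 2) and 17 (pooled). The coding-exon peak (X 3676934 to 3677303, 1438 bp into the gene) had ranks 55 (replicate 1), 491 (replicate 2) and 93 (pooled). Both stood higher in replicate 1. An intronic pair of overlapping pooled peaks at X 3674846 to 3675215 and X 3675053 to 3675422 showed the opposite order: the first had ranks 4190 (replicate 1), 363 (replicate 2) and 596 (pooled). The second, of pooled rank 23379, was matched to the same replicate 2 peak and had no counterpart in replicate 1.

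The other 3 reproducible peaks lay at neighbouring genes on either side. On the downstream side was C02F12.5, which encodes a protein with a BPTI/Kunitz inhibitor domain. Its peak (X 3671807 to 3672176, in a coding exon, 106 bp inside the start) had ranks 253 (replicate 1), 425 (replicate 2) and 253 (pooled). On the upstream side, in tag-278, which RefSeq calls a putative protein, a coding-exon peak (X 3686432 to 3686801, 529 bp from the start of the piRNA gene 21ur-14380, the nearest one) had ranks 137 (replicate 1), 266 (replicate 2) and 162 (pooled). The outermost (X 3694215 to 3694584, intergenic, 1162 bp upstream of C02F12.8) had ranks 49 (replicate 1), 84 (replicate 2) and 51 (pooled). Beyond these 6, the nearest reproducible peaks on X were 287 kb away downstream, near acp-1, and 473 kb away upstream, near ZK470.2.

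**Figure D1:**
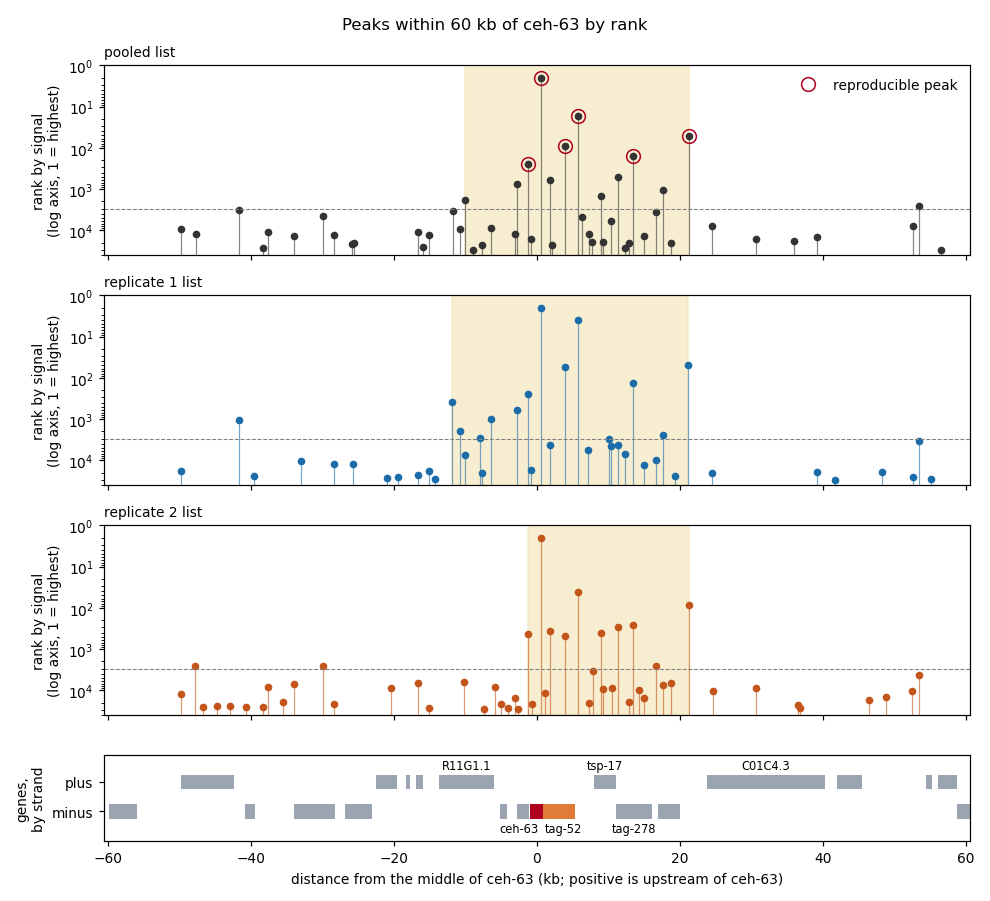
Rank by signal (log axis, 1 at the top) of every peak within 60 kb of the middle of ceh-63 (x axis, kb) in the pooled list, replicate 1 and replicate 2, with protein-coding genes by strand at the bottom. Circles mark the 6 reproducible peaks, the dashed line is rank 3000, the shaded stretch is the run of such peaks around ceh-63, and ranks 2, 17 and 51 stand out in the pooled list between 0.618 and 21.2 kb upstream.

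Strong peaks made up a larger share of the pooled peaks here than of the whole list. Of the 50 pooled peaks in the window, 6 were reproducible, or 12% (95% Wilson interval 5.62 to 23.8), where 1.6% of all pooled peaks were. Of the same 50 peaks, 5 (10%) had a q of at most 0.05, where 0.647% of the pooled list did. The reproducible peak in C02F12.5 was above that limit, at 0.121 (pooled), 0.117 (replicate 1) and 0.319 (replicate 2). The tag-52 exon peak had a q of 0.0378 in the pooled list and 0.386 in replicate 2. The top 10 percent of the pooled list, the 3000 peaks of highest signal, held 13 (26%), where 10% is the share by definition. Among as many top peaks of each replicate as the reproducible list holds (1.6% of each replicate list), 7 of replicate 1 and 8 of replicate 2 lay in the window. The reproducible list is the top 1.6% of the pooled list by signal, so the reproducible and top 10 percent counts rest on the same ranks. The locus was proposed with these ranks known, so the shares are descriptions, and no test was made. The intervals cover counting error only, and neighbouring peaks are not independent.

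Peak density was highest in the 20 kb to either side of ceh-63. Within 20 kb there were 32 pooled peaks, or 0.8 per kb, which is 2.73 times the chromosome X average of 0.294 per kb. From 20 to 40 kb there were 12 (1.02 times that average), and from 40 to 60 kb 6 (0.511 times). Replicate 1 gave 27, 8 and 7 peaks in these steps (2.32, 0.687 and 0.601 times), and replicate 2 gave 29, 12 and 10 (2.41, 0.999 and 0.832 times). The innermost step alone lies above the average in all 3 lists, and the outer ones hold under 20 peaks each. From 60 to 100 kb the pooled density was 0.852 times the X average and from 100 to 200 kb 1.09 times. In 10 kb steps on 1 side, replicate 2 went against this order downstream, with 6 peaks (2.00 times the X average) from 40 to 50 kb and 3 (0.999 times) from 10 to 20 kb.

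The peaks within 20 kb also had a higher median rank than those of X in each list. The median pooled rank was 8899.5 within 20 kb, 14381.5 from 20 to 40 kb and 8834 among the 6 peaks from 40 to 60 kb, against 15009 over X. In replicate 1 the medians were 4242, 16142.5 and 18908, against 15157 over X. In replicate 2 they were 8170, 9719 and 15900.5, against 14968 over X. Of the top 10 percent of the pooled list, 11 peaks were within 20 kb, 1 from 20 to 40 kb and 1 from 40 to 60 kb. In replicate 1 these counts were 12, 1 and 1, and in replicate 2 they were 9, 2 and 1.

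Within the window, rank followed distance only loosely. Spearman's coefficient of rank with distance was 0.248 over the 50 pooled peaks, 0.568 over the 42 of replicate 1 and 0.207 over the 51 of replicate 2. These coefficients describe peaks of the same libraries and carry no p. Among the peaks within 20 kb alone, it was 0.563 in replicate 1 and -0.0300 in replicate 2.

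**Figure D2:**
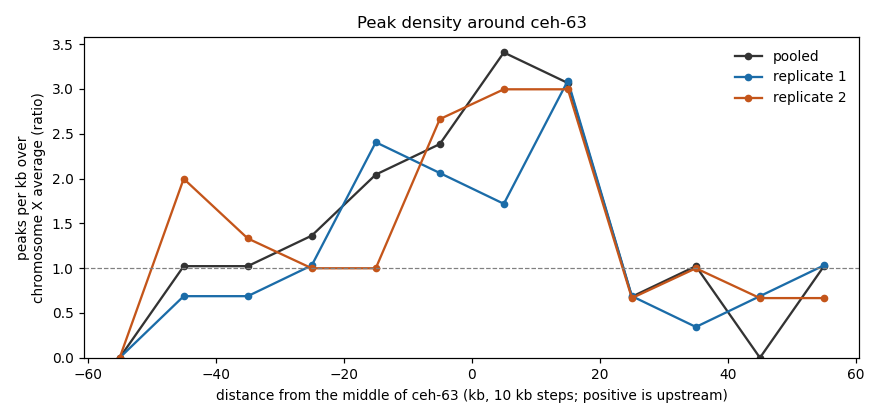
Peaks per kb in 10 kb steps along the locus (x axis, kb from the middle of ceh-63) over the chromosome X average of the same list (y axis, ratio), for the pooled list and each replicate. The 3 lists drop together beyond 20 kb upstream, to 0.681, 0.687 and 0.666 times the average, and differ on the downstream side, where replicate 2 has 2.00 times the average from 40 to 50 kb.

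Peaks were counted separately upstream and downstream of ceh-63. Within 20 kb upstream, the side of tag-52, there were 19 pooled peaks (3.24 times the X density, median rank 4700). Within 20 kb downstream there were 13 (2.21 times, median rank 11000). Replicate 1 had 14 upstream and 13 downstream, each side with 6 peaks of its top 10 percent. Replicate 2 had 18 upstream, 8 of them in its top 10 percent, and 11 downstream, with 1 in it.

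The extent of the enrichment was measured as a run: starting at ceh-63, neighbouring peaks of the top 10 percent were joined while their summits were at most 10 kb apart. In the pooled list the run reached from X 3663087 to 3694400, 31.3 kb in all, 10.1 kb downstream of the middle of ceh-63 and 21.2 kb upstream. The peak at its downstream edge had a q of 0.755 (pooled), 0.713 (replicate 1) and 0.906 (replicate 2). Of the 28 pooled peaks in the run, 5 (17.9%) had a q of at most 0.05, against 0.647% of the pooled list. All 5 lay upstream of the middle of ceh-63. The run held 12 peaks of the top 10 percent among its 28 pooled peaks, with a median spacing of 1155 bp between summits, against 2251 bp over X. The next such peak was 58.1 kb away downstream and 32.2 kb away upstream. In replicate 1 the run was 33.0 kb long with 13 such peaks. In replicate 2 it was 22.5 kb long with 10 and began at C02F12.5, 1.18 kb downstream.

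The upstream edge was the same peak in all 3 lists, and the downstream edge was not. The edge upstream was the peak between C02F12.8 and C01C4.3, 21.2 kb from the middle in the pooled list and replicate 1, and 21.3 kb in replicate 2. Across C01C4.3 (X 3696903 to 3713399), the next gene outward, there were 4 pooled summits in 16.5 kb, none in the top 10 percent and the best of rank 8017. On the other side, the edge lay in R11G1.1 (X 3659492 to 3667147), which encodes a protein with an EGF-like domain, in the pooled list and replicate 1. In replicate 1 it held 6 summits, 4 of them in the top 10 percent (ranks 386, 1016, 1934 and 2942). In replicate 2 it held 2 summits, of ranks 6364 and 28377. The pooled list had 6, of which 1 was in the top 10 percent (rank 1876). Between R11G1.1 and C02F12.5 lies snet-1, which held no pooled summit, none in replicate 1 and 1 of rank 21905 in replicate 2. Downstream beyond the run, R11G1.7 held 1 summit in each full list, of ranks 11000 (pooled), 22941 (replicate 1) and 6683 (replicate 2). R11G1.11, further out, held none in any list.

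Several weaker peaks of the locus had very unequal ranks in the replicates. At tsp-17, a tetraspanin gene, the strongest pooled peak (X 3682023 to 3682392, intronic, rank 1514) had rank 398 in replicate 2 and no counterpart within 200 bp in replicate 1, where the nearest summit was 1078 bp away. At the end of tag-278 an intronic peak (X 3684323 to 3684692, rank 504) had replicate ranks of 4242 (replicate 1) and 285 (replicate 2). The C02F12.8 coding-exon peak (X 3690567 to 3690936, rank 1063) went the other way, at 2389 (replicate 1) and 7303 (replicate 2). A peak in the 3′ UTR of C02F12.5 (X 3670242 to 3670611, rank 743) had replicate ranks of 598 (replicate 1) and 29302 (replicate 2).

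Replicate support in the window was close to that of the whole list. A counterpart within 200 bp in both replicates was found for 23 of the 50 pooled peaks, or 46% (95% Wilson interval 33.0 to 59.6), where 43.0% of all pooled peaks and 42.8% of those on X had one. Of the others, 8 had a counterpart in replicate 1 alone, 13 in replicate 2 alone and 6 in neither. Within 20 kb 17 of 32 were matched in both (53.1%, interval 36.4 to 69.1), and from 20 to 40 kb 3 of 12. Of the 13 window peaks in the top 10 percent, 12 were matched in both (92.3%), against 95.6% of the 524 such peaks on X. The exception was the tsp-17 peak. The replicates shared 1 control alignment in peak calling.

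The ranks given by replicate 1 and replicate 2 had a Spearman coefficient of 0.669 across the 23 doubly matched peaks. Over the 16 of these inside the run it was 0.726, and over the 7 outside it -0.179. Over the 2224 peaks of X matched in both it was 0.310. The run was defined by signal, and the points share a library and a control, so the coefficients are given as descriptions.

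**Figure D3:**
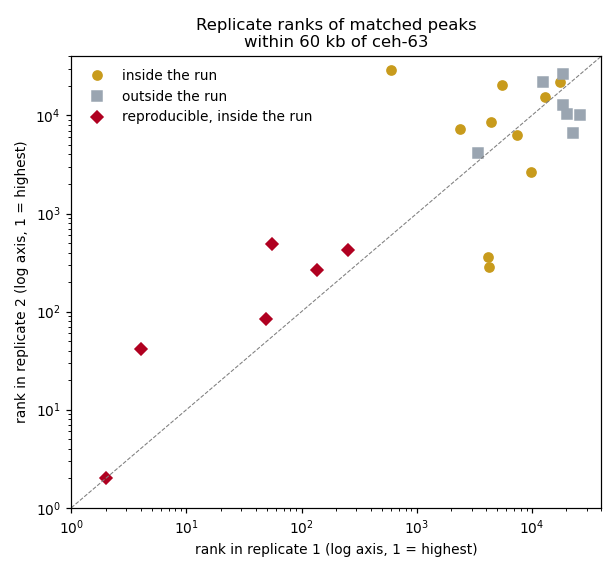
Rank in replicate 1 (x axis) against rank in replicate 2 (y axis), both on log axes with 1 the highest, for the 23 pooled peaks within 60 kb of ceh-63 with a counterpart in both replicates; the dashed line marks equal ranks. The 6 reproducible peaks (diamonds) have ranks from 2 to 253 in replicate 1 and from 2 to 491 in replicate 2.

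Summits of the run were placed by annotated sequence class. Of its 28 pooled summits 12 were in coding exons (42.9%, 95% Wilson interval 26.5 to 60.9), against 27.1% of the 5201 pooled summits on X. Another 7 were intergenic (25%, interval 12.7 to 43.4, against 35.7% on X) and 7 were in introns (25%, interval 12.7 to 43.4, against 27.9%). The 5′ and 3′ UTR classes held 1 each, and exons of non-coding genes held 0. The X shares for introns and intergenic sequence lie within the intervals of the run, and that for coding exons lies just inside. Within 20 kb of ceh-63, 14 of 32 pooled summits were in coding exons (43.8%, interval 28.2 to 60.7), and the X share lay just outside. The intervals cover counting error only, neighbouring peaks are not independent, and the difference was not tested.

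For the homeodomain hexamer, the X share lay within the interval at the locus. TAATTA lay within 150 bp of the summit in 9 of the 50 pooled peaks (18%, 95% Wilson interval 9.77 to 30.8), against 12.2% of the pooled peaks on X and 11.4% of the whole pooled list. None of the 6 reproducible peaks of the locus had it, which allows a share of up to 50% by a limit of 3 counts, against 14.4% of the whole reproducible list. The 4-base core was within 150 bp of 48 of the 50 summits (96%), against 90.0% on X. The median GC content of the 301 bp around the summits was 36.5% in the run and 37.9% over X.

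Windows around all other protein-coding genes were counted in the same way, with peaks of any q, as a description. Of the 19923 genes whose middle lies over 40 kb from that of ceh-63, 6 (0.0301%) had as many as 32 pooled peaks within 20 kb, and 4 (0.0201%) had as many as 5 reproducible ones. On X, none of 2715 genes reached either count, and the most were 28 and 3. Centred on tag-52, the window of 20 kb to either side held 33 pooled and 6 reproducible peaks, where the most elsewhere were 36 and 5. The count at ceh-63 in replicate 1 alone (27 within 20 kb) was reached by 28 genes (0.141%), and that in replicate 2 alone (29) by 5 (0.0251%). Windows of neighbouring genes overlap, so these genes are not separate sites. Over 60 kb the count of 50 pooled peaks was nearer the rest: 5.03% of 19815 genes had as many, with a median of 36 over all genes. That share was 26.1% on replicate 1 alone and 2.72% on replicate 2 alone. Of the 1915 runs of top peaks in the genome, 2 held 12 or more such peaks, that at ceh-63 and 1 on chromosome V with 14. By length, with the run at ceh-63 included, 2 pooled runs reached its 31.3 kb, and the longest was 33.2 kb. In replicate 1, 3 runs reached the 33.0 kb at ceh-63, itself included, and the longest was 42.1 kb. In replicate 2, 7 runs reached the 22.5 kb there, itself included, and the longest was 31.8 kb.

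Taking 1 gene per site, so that no windows overlap, the genes most like ceh-63 by the number of reproducible peaks within 20 kb were Y17D7C.2 on V with 5, acbp-5 on III with 4 and nduf-6 on I with 4, against 5 at ceh-63. Around Y17D7C.2 (V 18715853 to 18719987) there were 29 pooled peaks, 14 of them in the top 10 percent, in a run of 19.4 kb. Its best pooled rank was 211, where that at ceh-63 was 2, and its median rank was 3138, where that at ceh-63 was 8899.5. The windows of acbp-5 and nduf-6 held 21 pooled peaks each, with best ranks of 183 and 141 and median ranks of 6359 and 7338. The run of top 10 percent peaks nearest acbp-5 was 26.8 kb long with 10 such peaks, and that nearest nduf-6 11.7 kb with 6. At unc-119, the other gene that the transgene carries, there were 16 pooled peaks within 20 kb with a median rank of 15411 and 0 reproducible ones. This gene was added with its values in view, and whether transgene copies affect its counts was not tested. The density within 20 kb over that of the 20 to 60 kb flanks was 3.56 times at ceh-63, 4.46 times at Y17D7C.2, 2.8 times at acbp-5, 1.31 times at nduf-6 and 1.03 times at unc-119.

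**Figure D4:**
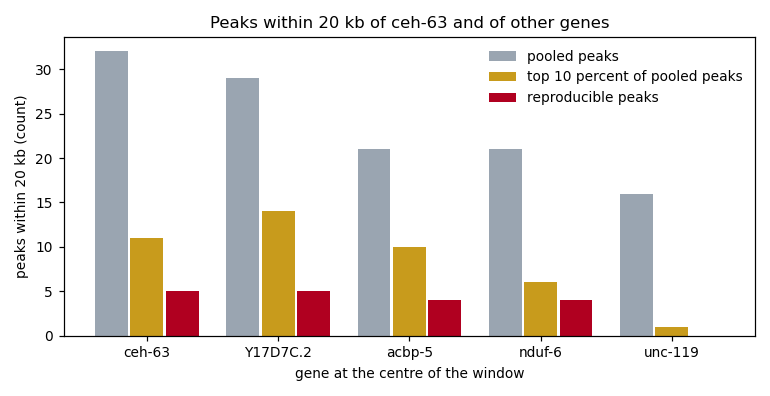
Number of pooled peaks, of peaks in the top 10 percent of the pooled list and of reproducible peaks (bars, count on the y axis) within 20 kb of the middle of ceh-63, of the 3 genes most like it (1 per site, with windows that do not overlap) and of unc-119. ceh-63 and Y17D7C.2 both have 5 reproducible peaks, with 32 and 29 pooled peaks, and unc-119 has 0 and 16.

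The pooled peaks on either side of the 60 kb limit were all outside the top 10 percent, while in replicate 1 the first peak beyond it downstream, 62.4 kb away near C18B2.5, had rank 2289 and was inside that list's top 10 percent. The last pooled peak inside was 49.8 kb downstream, near C18B2.2, with rank 9600, and 56.5 kb upstream, at aex-4, with rank 29753. The first outside were 61.0 kb downstream, near C18B2.8, with rank 26178, and 66.3 kb upstream, near T14G12.10, with rank 27491. The 1 outer peak in the top 10 percent, 53.4 kb upstream and 971 bp before the neuropeptide gene nlp-1, had ranks 3424 (replicate 1), 4179 (replicate 2) and 2618 (pooled).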

How the data were processed

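The data were 4 lists of ChIP-seq peaks on ce11 from 2 biological replicates of 1 group. According to the deposited README text, peaks were called by the authors per replicate and on both replicates combined, against 1 shared control, and an irreproducible discovery rate filter then gave the reproducible list. The sources used here do not give the aligner, the peak caller or that filter's threshold, and the read depth is unknown. The deposited signal value of each peak has no stated scale and served for ranking inside its own list. The deposited −log10 q of each peak was read as the narrowPeak format defines that column.

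Summits were placed from the deposited offsets. Genes came from Ensembl release 115 for WBcel235 without pseudogenes, and sequences from the RefSeq WBcel235 genome, in which no deposited peak ran past a chromosome end. Peaks of different lists were matched by summits within 200 bp, so that 1 replicate peak may serve several pooled peaks. Shares have 95% Wilson intervals, and a count of 0 has the limit that 3 counts give. The positional steps were tested on simulated data (Python 3.11.15, numpy 2.4.6, pandas 2.3.3, scipy 1.17.1). With 1 group, no difference was tested.

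The members, lists and settings were chosen with earlier results of these data known. Named were ceh-63, tag-52, the genes nearest to the reproducible and top 10 percent peaks of the window, coding genes starting within 20 kb, the genes at the 60 kb limit and the 3 genes elsewhere with the most reproducible peaks within 20 kb, 1 per site so that no windows overlap, with ties settled by pooled peaks and then by summed rank. C01C4.3, unc-119, acp-1 and ZK470.2 were added to this rule with their values in view, as was the alternative that counts overlapping peaks once.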

Additional observations from a re-analysis of the deposited data

How the results depend on the processing

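Across 9 results, 37 of 52 alternative values stayed within the spread used for each, and 15 moved beyond it. The spread was 1.5 times for counts, the Wilson interval for shares and 1 SD of the replicates otherwise. That SD comes from the single-replicate values, which are themselves among the alternatives, so the tally is only a description. With the tag-52 gene body or 1000 bp around it, the rank of 2 was that of the ceh-63 5′ UTR peak, yet it counted as within the spread. With only pooled peaks of q 0.05 or less, 5 remained in the window in place of 50. The share matched in both replicates was 92.3% among the top 10 percent of peaks. The density within 20 kb, 2.73 times that of X, was 3.56 times that of the 20 to 60 kb flanks, 9.30 times among the top 10 percent, 2.90 times within 10 kb and, with overlapping peaks counted once (chosen after seeing the data), 2.62 times. TAATTA lay within 50 bp of 4% of summits, against 4.17% on X and 3.9% of the whole pooled list. ATTA lay within 150 bp of 96%, against 90.0% on X. Ranked by q, with ties at their mean rank, the ceh-63 peak was at 29.5.

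With 1 replicate left out, the list of the other alone was used, except for the matched share. The window held 42 to 51 peaks, and 7 to 8 among as many top peaks as the reproducible list holds. Density was 2.32 to 2.41 times that of X, the median rank within 20 kb 4242 to 8170 and the run 22.5 to 33.0 kb. TAATTA was near 13.7% to 19.0% of summits. The strongest peak had rank 2 in both for ceh-63 and rank 4 to 42 for tag-52. For the matched share the 50 pooled peaks were kept, and 62% to 72% had a counterpart in the remaining replicate. Those peaks were called on both replicates, so this share does not fully leave 1 out. The median rank within 20 kb was 4242 on replicate 1 alone, against 8899.5 in the pooled list. No paired analysis was possible because the series has a single group. Depth is unknown, so a missing counterpart in a replicate may lie below what that library could show.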
